A study of Homo sapiens with 24 samples.

Results

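The gene set described here holds 10 genes of chemokines and immune ligands: the CXC chemokines CXCL10, CXCL12 and CXCL16, the CC chemokines CCL2, CCL5 and CCL28, the secreted cytokines IL15 and TNFSF13B, and the surface ligands CD274 and CD47. Members were taken by name from the expression table, wherever a listed symbol stood in a row's name. The list itself was drawn up with earlier results of these data known. All 10 had a row of their own, among 25516 rows analysed, and all 10 passed a filter of 10 scaled fragments or more in 3 libraries, as did 20162 rows in all. CXCL10 and CCL5 reached 10 scaled fragments in 13 of the 24 libraries and CD274 in 15, so these 3 are low genes.

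The libraries were RNA sequencing of total RNA from 2 derivatives of T47D, a luminal human breast cancer line that carries the oestrogen receptor. T47D-co is labelled positive and T47D-Y null for the progesterone receptor (PR), the nuclear receptor of progesterone. Cells of both lines stood for 18 hours with water or with interferon-alpha (IFN) at 20 IU per ml, and for 6 further hours with ethanol (EtOH) as vehicle or with 10 nM R5020, a synthetic progestin that binds PR. The 8 groups, which shared 1 culture medium with serum and insulin, held 3 biological replicates each. Each PR state is represented by 1 derivative line, so PR and any other difference between the 2 lines cannot be told apart.

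Chemokines are small secreted proteins that bind G protein-coupled receptors and direct the movement of leukocytes. CXCL10 draws activated T cells through CXCR3 and is a textbook target of interferons, CXCL12 binds CXCR4, and CCL2 draws monocytes through CCR2. Interferon-alpha acts through the receptor chains IFNAR1 and IFNAR2 and a transcription factor complex that holds IRF9, which binds a DNA element, the interferon-stimulated response element (ISRE), before its target genes. PR bound by a progestin binds DNA as a dimer at a palindromic element and raises or lowers its target genes.

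Promoter windows of 250 bases before and 50 bases after the start were found in RefSeq (GRCh38.p14) for 6 of the 10 members, in 8 windows. They belong to CXCL10, CXCL12, CCL28, TNFSF13B, CD274 and CD47. CXCL16, CCL2, CCL5 and IL15 had no window in that table. The ISRE letters, GAAA, any 2 bases and GAAA again, sought on both strands, stood in windows of 3 of the 6 members, and 3.57% of all 35116 windows hold them. The first share counts genes, of which CCL28 and TNFSF13B have 2 windows each. The second counts windows, so the shares are not like for like. The stretches of those 3 members are shown because interferon is a treatment of the study and because CXCL10 had the highest IFN estimates in T47D-Y. Capitals mark the ISRE letters and the sequences run 5′ to 3′ on the gene's strand.
CXCL10: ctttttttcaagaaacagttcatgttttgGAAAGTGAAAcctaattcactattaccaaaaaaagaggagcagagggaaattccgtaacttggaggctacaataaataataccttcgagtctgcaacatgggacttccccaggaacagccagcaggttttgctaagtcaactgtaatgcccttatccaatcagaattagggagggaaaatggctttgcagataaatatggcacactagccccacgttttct
CD274: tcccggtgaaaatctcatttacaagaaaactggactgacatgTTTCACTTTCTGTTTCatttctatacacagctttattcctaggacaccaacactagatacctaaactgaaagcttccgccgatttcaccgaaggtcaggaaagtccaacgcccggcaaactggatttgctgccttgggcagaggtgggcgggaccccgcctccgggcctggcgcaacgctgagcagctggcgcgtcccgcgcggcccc
TNFSF13B: tacaaaaactGAAAGTGAAAtgaggaagac

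The CXCL10 stretch is the 250 bases before its start, chr4:76023498-76023747 on the minus strand of GRCh38.p14, and its match begins at position -221 from the start. The CD274 stretch is the 250 bases before its start, chr9:5450292-5450541 on the plus strand, with overlapping matches on the other strand that begin at -208 and -202. For TNFSF13B only 30 bases around the match are shown, chr13:108269637-108269666 on the plus strand. This match lies at 19 counted from one annotated start and at -71 from the other. Letters of the kappaB element, to which NF-kappaB binds, matched at 2 places of the CXCL10 window (11.3% of all windows hold a match), and letters of the gamma-activated site TTCNNNGAA matched once in the CD274 window (7.66% of all windows). The single PR element AGAACA and the palindrome of GNACA, any 3 bases and TGTNC had no match in the windows of any of the 6 members, while 14.8% and 0.39% of all windows hold them. A match describes letters in a window and is not a bound site. A lack of matches says nothing of letters outside these windows of 300 bases. It also says nothing of CXCL16, CCL2, CCL5 and IL15, which had no window.

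Values are scaled fragments, the estimated fragments of a row in a library divided by a size factor common to all 24 libraries. They are not divided by gene length, so levels are compared between groups and not between genes. Libraries held between 14137615 and 33602086 estimated fragments (median 18381461). In 4 water libraries (replicates 1 and 2 of T47D-Y with R5020, replicate 1 of T47D-Y with EtOH and replicate 2 of T47D-co with EtOH) mitochondrial transcripts took 0.942 to 1.08% of fragments, against 3.17 to 4.75% in the other 20. PGR, the gene of PR, averaged 26480 scaled fragments in untreated T47D-co and 692.5 in untreated T47D-Y, and the interferon-stimulated gene ISG15 rose with IFN in both lines (log2 fold change 2.97 in T47D-co and 5.41 in T47D-Y, both given EtOH). All 7 of the luminal markers with a row of their own were expressed in every group, with a summed level of 58598 to 64209 in T47D-co given R5020 and 88812 to 100510 in the other groups. Among leukocyte markers with such a row PTPRC, the common leukocyte antigen, ranged from 0 to 9.21, CD3E of T cells from 0 to 7.12, NKG7 of natural killer cells from 0 to 6.31 and LYZ of myeloid cells from 0 to 7.55. Of 6 fibroblast markers COL1A1 alone had such a row, at 154 to 473, and of 4 endothelial markers CDH5 alone, at most 7.44, and none of these was at 0 in every library.

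**Figure D1:**
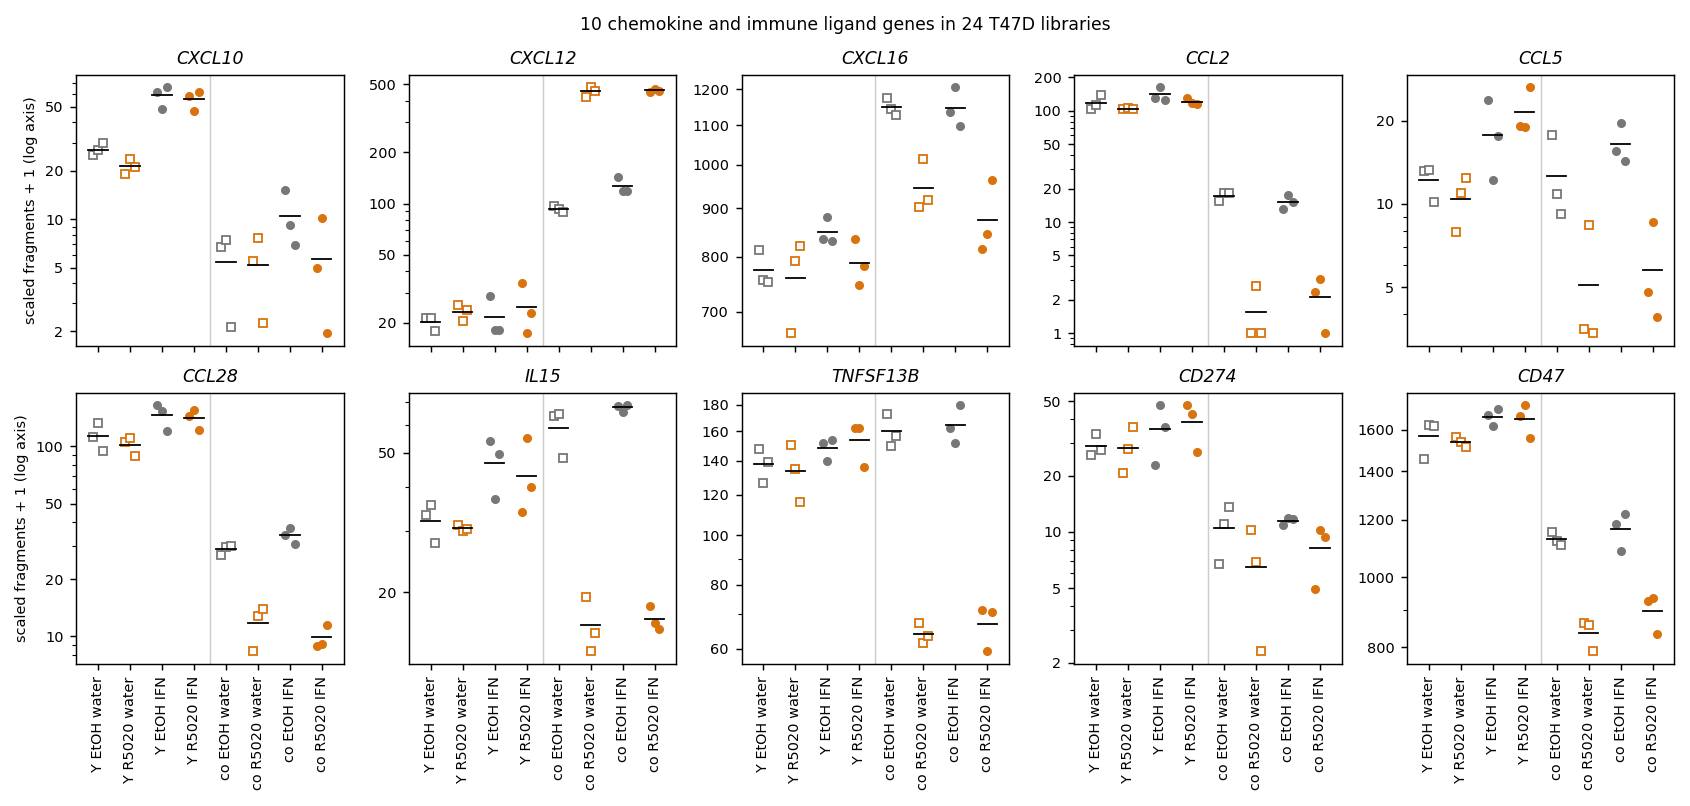
Scaled fragments plus 1 (log axis, own range per panel) of the 10 genes in each of 24 libraries, with groups along the x axis (Y and co are T47D-Y and T47D-co), squares for water, filled circles for IFN, grey for EtOH, orange for R5020 and a bar at the group mean. In T47D-co the 6 libraries given R5020 lie highest for CXCL12 and lowest for CXCL16, CCL2, CCL5, CCL28, IL15, TNFSF13B and CD47.

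With R5020 in T47D-co 8 of the 10 members changed. Among libraries given water, CXCL12 rose, 7 members fell (CXCL16, CCL2, CCL5, CCL28, IL15, TNFSF13B and CD47) and CXCL10 and CD274 were not called. The same count was found among libraries given IFN, 1 higher and 7 lower, which are other libraries. A call is a Benjamini-Hochberg adjusted p under 0.05 over all rows tested. Called rows made up 56.5% of all rows given water (26.6% higher and 30.0% lower) and 58.2% given IFN (27.5% higher and 30.6% lower). The R5020 and EtOH libraries did not overlap for 8 members given water and 9 given IFN, beside 61.7% and 60.4% of all rows. The median log2 fold change of the 10 members was -1.10 given water and -1.20 given IFN, against -0.04 and -0.05 over all rows tested. Without the 4 libraries of low mitochondrial share, 8 members were called in each of these comparisons. The summed luminal markers were also lower in the T47D-co libraries given R5020 (58598 to 64209 against 88812 to 93058 with EtOH). They did not change alike: given water, EPCAM averaged 1504 with EtOH and 1547 with R5020, and KRT19 21060 and 19630. In the same order KRT8 averaged 13880 and 11850, KRT18 6929 and 4896, GATA3 20940 and 11850, ESR1 18780 and 10920 and FOXA1 7172 and 2363. The part of the luminal markers in these differences was not tested. RNA of a whole culture was measured, so fewer cells expressing a gene and less RNA per cell cannot be told apart.

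CXCL12, the ligand of CXCR4 that retains and guides leukocytes, lies at 10:44793038-44881941 (GRCh37, as all gene positions below). T47D-co libraries given EtOH and water held 96.0, 91.6 and 87.7 scaled fragments of CXCL12, and those given R5020 held 419, 481 and 457. All 3 R5020 libraries lay above all EtOH libraries, and the log2 fold change was 2.29 ± 0.19 (limma estimate ± SE, 3 libraries per group, adjusted p = 1.09e-10). With IFN the EtOH libraries held 142, 117 and 118 and the R5020 libraries 450.2, 469.9 and 455, again without overlap (1.86 ± 0.19, adjusted p = 4.86e-09). A second row, AL137026.1, shares the locus and took 1.74 to 7.19% of its fragments in T47D-co. CXCL12 is also made by fibroblasts. Only COL1A1 of the listed fibroblast markers had a row of its own. It stood at 437 to 465 in T47D-co libraries given EtOH and water and at 321 to 375 in those given R5020. Whether fibroblasts had a part in the CXCL12 level was not tested.

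CXCL16, a transmembrane chemokine that binds CXCR6, lies at 17:4634723-4643217 and shares its locus with MED11, which took 11.2 to 15.6% of the fragments there in T47D-co. Its T47D-co libraries given EtOH and water held 1174, 1143 and 1127 scaled fragments and those given R5020 902, 1012 and 916. The groups did not overlap, and the fall was small (log2 fold change -0.28 ± 0.07, adjusted p = 0.000966). With IFN the fall was from 1146 ± 55.6 to 873 ± 77.6 (mean ± SD, n = 3; -0.39 ± 0.07, adjusted p = 2.33e-05).

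CXCL10 lies at 4:76932337-77033955, a locus of 3 rows with its neighbour CXCL11 and the merged row of AC112719.1 and ART3. ART3 runs over the chemokine genes on the opposite strand and the strand of the reads is not given in the sources used here, so the split between these rows is uncertain. T47D-co libraries given EtOH and water held 5.74, 6.40 and 1.13 scaled fragments of CXCL10 and those given R5020 4.53, 6.64 and 1.27. These ranges overlap almost fully and the log2 fold change of -0.05 had a 95% interval from -1.09 to 0.99. With IFN the libraries held 14.2, 8.15 and 5.92 given EtOH and 3.95, 9.15 and 0.951 given R5020. The estimate was -1.10 ± 0.50 (interval -2.14 to -0.06, adjusted p = 0.0654), and a fit with the replicate number as a block called it (-1.10, adjusted p = 0.0442). It was also called without T47D-co EtOH IFN replicate 3 (-1.35) or without T47D-co R5020 IFN replicate 2 (-1.67), among leave-one-out estimates from -1.67 to -0.48.

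CCL2, the monocyte chemokine, lies alone at 17:32581900-32584222 and had the lowest log2 fold change with R5020 of the 10 members. T47D-co libraries given EtOH and water held 14.4, 17.1 and 17.3 scaled fragments, and those given R5020 held 0, 1.68 and 0. Only 2 fragments of CCL2 were counted over the 3 R5020 libraries, against 54 over the 3 EtOH libraries. The R5020 level was 4.02% of the EtOH level, with an exact 95% interval of 0.475 to 15.3% that covers counting error only. With IFN the libraries held 12.1, 16.3 and 14.2 given EtOH and 1.33, 2.05 and 0 given R5020, or 41 and 3 fragments. That ratio was 7.79% (1.54 to 24.4%). The 3 libraries at 0 allow up to 2.76 to 3.90 scaled fragments each, the value of 3 fragments. The limma estimates were -3.63 ± 0.34 and -2.98 ± 0.34 (adjusted p = 8.66e-10 and 2.99e-08), and at such low counts their size depends on the pseudocount of 1.

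CCL5, which draws T cells and other leukocytes, lies at 17:34195971-34212867 with a second row, AC015849.2, that took 20.3 to 69.2% of the locus in T47D-co. The CCL5 row held 16.8, 9.83 and 8.21 scaled fragments in T47D-co given EtOH and water and 2.51, 7.37 and 2.40 with R5020. The lowest EtOH library lay just above the highest R5020 library, with a log2 fold change of -1.38 ± 0.39 (adjusted p = 0.00394). With IFN CCL5 fell from 15.5 ± 2.81 to 4.75 ± 2.48 (-1.59 ± 0.39, adjusted p = 0.00111).

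CCL28, a chemokine of mucosal epithelia that binds CCR10 and CCR3, lies alone at 5:43376747-43412493. T47D-co libraries given EtOH and water held 26, 28.5 and 28.8 scaled fragments and those given R5020 7.36, 11.8 and 13.0. With IFN they held 33.1, 36.3 and 29.6, and with IFN and R5020 7.96, 8.18 and 10.6. R5020 libraries lay below EtOH libraries in both sets. The log2 fold changes were -1.33 ± 0.19 and -1.79 ± 0.19 (adjusted p = 1.67e-06 and 1.33e-08).

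IL15, a cytokine that sustains natural killer cells and memory T cells, lies alone at 4:142557752-142655140. In T47D-co given water its libraries held 62.6, 63.5 and 47.2 scaled fragments with EtOH and 18.4, 12.6 and 14.3 with R5020. Given IFN they held 67.3, 64.5 and 67.6 with EtOH and 17.2, 15.3 and 14.8 with R5020. The 6 EtOH libraries were thus all above the 6 R5020 libraries, at log2 fold changes of -1.87 ± 0.20 and -2.01 ± 0.20 (adjusted p = 1.64e-08 and 4.58e-09).

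TNFSF13B, which encodes the B cell survival factor BAFF, lies alone at 13:108903588-108960832. T47D-co libraries given EtOH and water held 172, 148 and 156 scaled fragments and those given R5020 66.3, 60.5 and 62.4. Given IFN the values were 161, 151 and 179 with EtOH and 70.3, 58.3 and 69.6 with R5020. Both sets were far apart for their spread, with log2 fold changes of -1.32 ± 0.11 and -1.30 ± 0.11 (adjusted p = 2.04e-10 and 2.7e-10).

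CD47, which binds SIRPA on macrophages and restrains phagocytosis, lies alone at 3:107762145-107809872. Its T47D-co libraries given EtOH and water held 1155, 1120.5 and 1106 scaled fragments and those given R5020 862, 857 and 789. The fall was small and did not overlap (log2 fold change -0.43 ± 0.05, adjusted p = 1.34e-07), and with IFN CD47 fell from 1163 ± 69.8 to 898 ± 54.7 (-0.37 ± 0.05, adjusted p = 1.31e-06).

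CD274, which encodes PD-L1, the ligand of the T cell receptor PD-1, lies alone at 9:5450503-5470566. T47D-co libraries given EtOH and water held 5.77, 9.99 and 12.7 scaled fragments of CD274 and those given R5020 9.20, 5.88 and 1.30. The groups overlapped, and the log2 fold change of -0.89 ± 0.43 was not called (95% interval -1.77 to -0.0036, adjusted p = 0.082). It was called without T47D-co EtOH water replicate 1 (-1.17) or without T47D-co R5020 water replicate 1 (-1.34), and the other leave-one-out estimates reached -0.26. With IFN the libraries held 9.93, 10.9 and 10.7 given EtOH and 3.98, 9.21 and 8.44 given R5020, without overlap, as in 60.4% of all rows, and the estimate of -0.55 was not called (interval -1.44 to 0.33, adjusted p = 0.279).

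**Figure D2:**
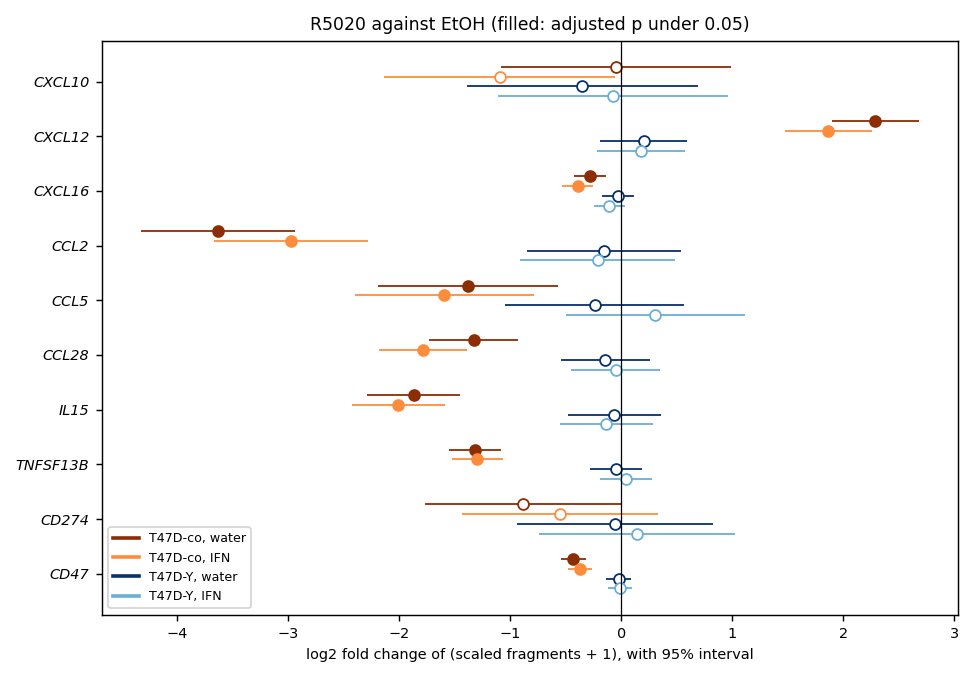
Log2 fold change of scaled fragments plus 1 with R5020 against EtOH (x axis) for each of the 10 genes (y axis) in 2 lines given water or IFN, with 95% intervals and filled points for an adjusted p under 0.05. In T47D-co 8 genes are filled with either water or IFN, and in T47D-Y none is.

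In T47D-Y, which is labelled as lacking PR, no member was called with R5020, where limma called 0.218% of all rows given water (0.203% higher and 0.0149% lower, 44 rows) and 0.298% given IFN (0.263% and 0.0347%, 60 rows). No member had an unadjusted p under 0.05 either, beside 4.21% and 5.97% of all rows. The line still had rows that changed with R5020: PGR fell from 692.5 ± 37.5 to 464.9 ± 18.4 scaled fragments given water (-0.57, adjusted p = 8.51e-08). The merged row of FKBP5, a classical target of steroid receptors, stood at 1217 ± 79.8 with EtOH and 2106 ± 57.4 with R5020, without overlap. The log2 fold changes of the 10 members ranged from -0.35 to 0.20 given water and from -0.22 to 0.31 given IFN. The intervals were narrow for CD47 (-0.14 to 0.08) and TNFSF13B (-0.28 to 0.19), and wide for CXCL10 (-1.39 to 0.69). CXCL10 was the 1 member whose T47D-Y groups given water did not overlap, at 23.9, 25.8 and 28.7 with EtOH and 18.0, 22.6 and 20.2 with R5020. Of all rows tested, 10.6% did not overlap in that comparison.

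The difference between the lines in the R5020 response was tested as an interaction among libraries given water, where 44.6% of all rows were called (21.6% higher and 23.0% lower in T47D-co). Of the members, 7 were called. CXCL12 had the higher response in T47D-co, with an interaction of 2.09 ± 0.27 (adjusted p = 4.39e-07). Those with a lower response in T47D-co were CCL2 (-3.47), IL15 (-1.81), TNFSF13B (-1.27), CCL28 (-1.19), CD47 (-0.41) and CXCL16 (-0.25). The size of the CCL2 value depends on the pseudocount of 1. The interaction of CCL5 was -1.14 (95% interval -2.28 to 0.0014, adjusted p = 0.10), and the sum of both rows at its locus gave -1.49 with a call, as did the CCL5 row without T47D-co R5020 water replicate 2 (-1.57). CXCL10 (0.30, interval -1.17 to 1.77) and CD274 (-0.83, interval -2.07 to 0.42) were not called. The CXCL16 call was lost in 8 of 12 fits that left out 1 library (-0.26 to -0.19 in those 8). These left out replicates 2 or 3 of T47D-Y with EtOH, 2 or 3 of T47D-Y with R5020, 1 or 2 of T47D-co with EtOH, and 1 or 3 of T47D-co with R5020. It was also lost on the deposited scale (-0.23) and with no filter on low rows (-0.25). The CCL28 call was lost without the 4 libraries of low mitochondrial share (-0.98, adjusted p = 0.0677).

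IFN gave no call for any of the 10 members in either line. Called rows made up 1.00% of 20162 rows tested by limma in T47D-co given EtOH (0.570% higher and 0.432% lower) and 11.3% given R5020 (7.57% and 3.69%). In T47D-Y they made up 4.44% given EtOH (2.51% and 1.93%) and 4.77% given R5020 (3.08% and 1.69%). Members with an unadjusted p under 0.05 numbered 2, 0, 2 and 4 in the same order, beside 8.79%, 26.1%, 17.0% and 16.3% of all rows. Those whose IFN and water libraries did not overlap numbered 3, 0, 3 and 5, beside 13%, 27.1%, 21.6% and 22% of all rows. The medians of the members' log2 fold changes were 0.20, 0.07, 0.25 and 0.33, against medians over all rows between -0.004 and 0.02. Line and IFN state coincide with the 4 blocks of 6 libraries in which the deposited values had been scaled. Directions here therefore rest on the common scaling, and on the deposited scale 2, 1, 3 and 4 members were called, all of them lower with IFN.

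CXCL10 had the highest IFN estimates of the 10 members in T47D-Y. Libraries given EtOH and water held 23.9, 25.8 and 28.7 scaled fragments of CXCL10 and those given IFN 60.8, 47.7 and 65.7. With R5020 they held 18.0, 22.6 and 20.2 given water and 57.4, 46.2 and 61.2 given IFN. All 6 IFN libraries lay above all 6 water libraries of T47D-Y. The log2 fold changes were 1.11 ± 0.50 and 1.39 ± 0.50, with adjusted p of 0.253 and 0.129. The fit pools the spread over 8 groups, and CXCL10 in T47D-co ranged from 0.951 to 14.2. In fits of the compared groups alone CXCL10 was called in both (1.11, adjusted p = 0.0104, and 1.39, adjusted p = 0.00333). It was also called with a pseudocount of 10 (0.91 and 1.10) and with voom weights (1.11 and 1.41). The sum over its locus, below, was called given R5020. Among leave-one-out fits, none of which called it, the estimates ran from 1.02 to 1.25 given EtOH and from 1.31 to 1.51 given R5020.

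In T47D-co CXCL10 was lower throughout. Given EtOH, the libraries held 5.74, 6.40 and 1.13 with water and 14.2, 8.15 and 5.92 with IFN (1.06 ± 0.50, adjusted p = 0.551). The lowest IFN library lay below the highest water library. Given R5020 the means were 4.15 ± 2.71 with water and 4.68 ± 4.15 with IFN (0.01, interval -1.03 to 1.05). A log2 fold change of 1 lies within the 95% interval in both states. The CXCL10 row took 68.4 to 95.9% of the fragments at its locus in T47D-Y and 6.93 to 81.6% in T47D-co. Summed over the 3 rows of the locus, the IFN difference in T47D-Y given R5020 was 1.36 and called (adjusted p = 0.0212).

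**Figure D3:**
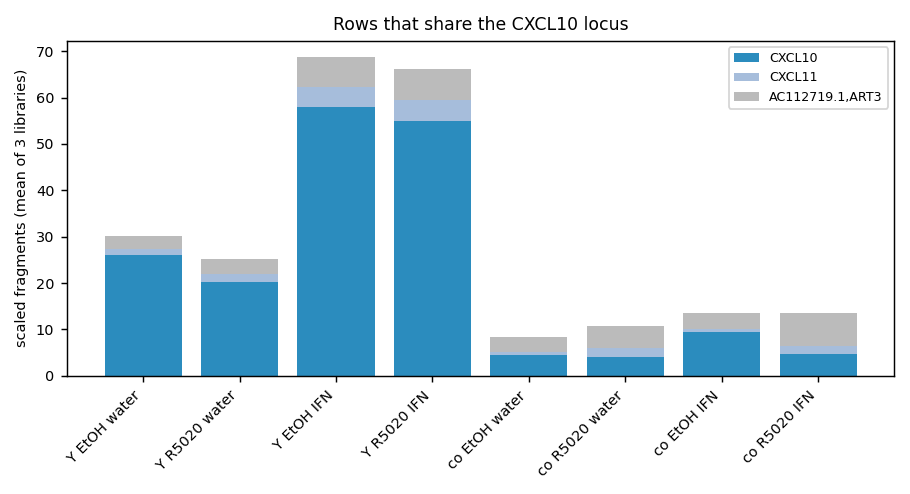
Stacked bars of the mean scaled fragments (y axis, 3 libraries per group, no error shown) of the 3 rows that share the CXCL10 locus, by group on the x axis. The CXCL10 row averages 58.1 and 55.0 in the T47D-Y groups given IFN and at most 9.41 in any T47D-co group.

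Among the other members, CCL5 in T47D-Y given R5020 held 6.89, 9.91 and 11.4 scaled fragments with water and 18.1, 17.9 and 25.5 with IFN. These groups did not overlap, as in 22% of all rows. The log2 fold change of 1.05 ± 0.39 was not called (adjusted p = 0.14), though voom weights called it (1.13) and CCL28 (0.44) there. IL15 in T47D-Y held 32.2, 34.4 and 26.6 with EtOH and water and 52.9, 36.0 and 48.7 with IFN (0.54 ± 0.20, adjusted p = 0.154). CXCL12 in T47D-co given EtOH held 91.8 ± 4.13 with water and 126 ± 14.1 with IFN, without overlap, as in 13% of all rows (0.44 ± 0.19, adjusted p = 0.452). The IFN intervals for CD47 given EtOH ran from -0.07 to 0.15 (T47D-co) and from -0.02 to 0.20 (T47D-Y). Intervals for CD274, which carries the ISRE letters shown above, ran from -0.69 to 1.07 and from -0.63 to 1.13. For TNFSF13B, which also carries them, they ran from -0.19 to 0.28 and from -0.13 to 0.34.

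**Figure D4:**
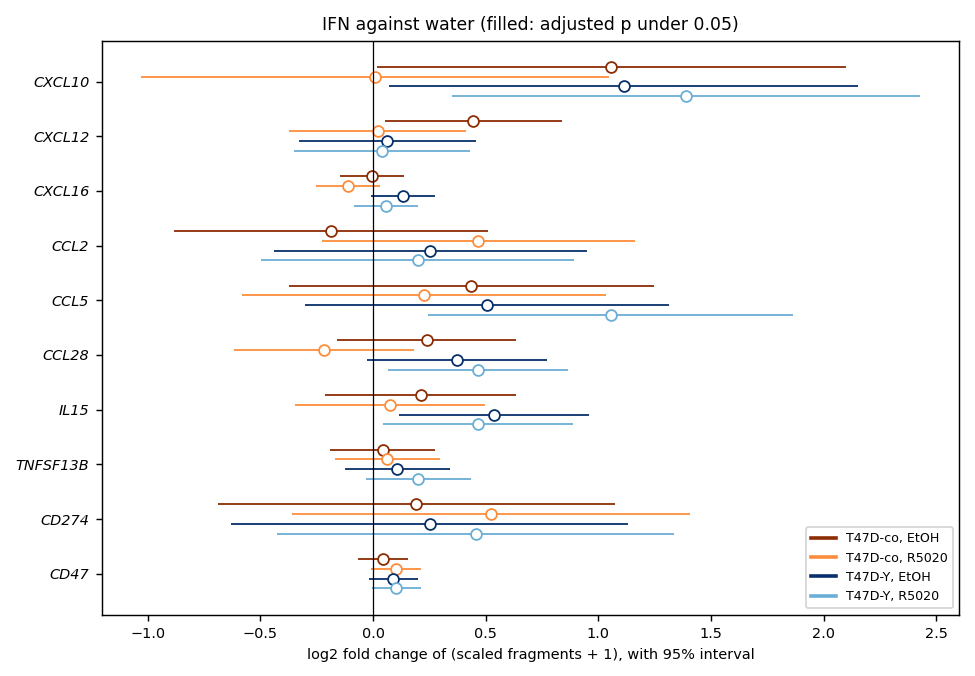
Log2 fold change of scaled fragments plus 1 with IFN against water (x axis) for each of the 10 genes (y axis) in 2 lines given EtOH or R5020, with 95% intervals and open points where the adjusted p was not under 0.05. All points are open, and the CXCL10 points of T47D-Y, at 1.11 and 1.39, lie farthest right among those of that line.

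Whether R5020 changed the IFN response, the question in the study's title, was tested as an interaction within each line. No member was called in T47D-co, where 1.01% of all rows were (0.873% higher and 0.134% lower), and none in T47D-Y, where no row was. By limma 0 members had an unadjusted p under 0.05 in either line, against 3099 rows (15.4%) in T47D-co and 695 (3.45%) in T47D-Y. The interaction of CXCL10 in T47D-co was -1.05 with a 95% interval from -2.52 to 0.42. For TNFSF13B it was 0.02 (-0.31 to 0.35), for CD47 0.06 (-0.10 to 0.21) and for CXCL12 -0.42 (-0.98 to 0.13). The line by IFN interaction given EtOH called no member either, where 0.377% of all rows were called (0.0645% higher and 0.312% lower). It stood at -0.05 for CXCL10 (interval -1.52 to 1.42) and 0.38 for CXCL12 (-0.17 to 0.94). These interactions use the same libraries as the comparisons above and are not separate evidence.

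The 2 lines differed in most members before any treatment. With EtOH and water 8 of 10 were called, 3 higher and 5 lower in T47D-co, and 63.1% of all rows were called (29.7% higher and 33.4% lower). CXCL12 (91.8 ± 4.13 against 19.2 ± 1.97 scaled fragments, log2 difference 2.2), IL15 (57.8 ± 9.13 against 31.1 ± 4.04, 0.87) and CXCL16 (1148 ± 23.7 against 773 ± 34.1, 0.57) were higher in T47D-co. CCL2 (16.3 ± 1.60 against 117 ± 18.1, -2.76), CXCL10 (4.42 ± 2.87 against 26.1 ± 2.39, -2.51), CCL28 (27.8 ± 1.56 against 112 ± 19.4, -1.96), CD274 (9.48 ± 3.48 against 27.9 ± 3.90, -1.51) and CD47 (1127 ± 25 against 1566 ± 94.8, -0.47) were lower. CCL5 (11.6 ± 4.54 against 11.2 ± 1.74, interval -0.81 to 0.81) and TNFSF13B (159 ± 12.1 against 137 ± 10.3, interval -0.02 to 0.45) were not called. CXCL10 held 18.0 or more in every T47D-Y library, and in T47D-co only EtOH IFN replicate 1 (14.2) reached the filter's 10. It thus passed the filter through T47D-Y, so its lower calls in T47D-co, here and below, are a description.

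With IFN and EtOH the same counts were found, 3 higher and 5 lower against 62.6% of all rows (29.6% and 33.0%). There the IL15 call (0.54, adjusted p = 0.0238) was lost without T47D-Y EtOH IFN replicate 2 (0.38), T47D-co EtOH IFN replicate 1 (0.53) or T47D-co EtOH IFN replicate 3 (0.53). With R5020 and water all 10 members were called, 2 higher and 8 lower in T47D-co (68.5% of all rows, 32.0% and 36.6%), and with R5020 and IFN 9, 1 higher and 8 lower (68.3%, 32.5% and 35.8%). CXCL12 reached 452 ± 31.5 in T47D-co against 22.3 ± 2.61 in T47D-Y with R5020 and water, a log2 difference of 4.29 ± 0.19. CCL2 stood at 0.56 ± 0.97 against 104 ± 2.03, a log2 difference of -6.24 ± 0.34. With 2 CCL2 fragments in those T47D-co libraries, the size of this difference depends on the pseudocount of 1. IL15, higher in T47D-co than in T47D-Y with EtOH, was lower there with R5020 (15.1 ± 2.99 against 29.5 ± 0.59, -0.94 ± 0.20). TNFSF13B, not called between the lines with EtOH, was lower in T47D-co with R5020 (63.0 ± 2.96 against 133 ± 17.0, -1.06 ± 0.11).

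Calls of CCL5 and CXCL16 between the lines changed in some alternatives. The CCL5 call with R5020 and water (-1.14, adjusted p = 0.0126) was lost without T47D-Y R5020 water replicate 3 (-1.0), T47D-co R5020 water replicate 1 (-0.94) or T47D-co R5020 water replicate 3 (-0.92). The CXCL16 call with R5020 and water (0.32) was lost on the deposited scale (0.11) and without the 4 libraries of low mitochondrial share (0.20). With R5020 and IFN CXCL16 was not called (0.15, adjusted p = 0.0618), but was on the deposited scale (0.23), without those 4 libraries (0.15, adjusted p = 0.0384), and without T47D-Y R5020 IFN replicate 1 (0.19) or T47D-co R5020 IFN replicate 1 (0.20).

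Ordered over the 8 groups, some members shared a pattern, and CXCL12, CXCL10, CXCL16 and CCL5 each had their own. For CXCL12 the order ran from T47D-co with R5020 (458 and 452, which overlap) through T47D-co with EtOH and IFN (126) and with EtOH and water (91.8) to the 4 T47D-Y groups, which overlap with their neighbours at 23.7 to 19.2. For CCL2, CCL28, CD274 and CD47 the 4 T47D-Y groups came first, each overlapping with the next, and the T47D-co groups followed without overlap between the lines. Compared within a treatment, 65.2 to 72.7% of all rows did not overlap between the lines. For CD47 the T47D-co EtOH groups (1163 and 1127) lay between T47D-Y (1537 to 1666) and T47D-co with R5020 (898 and 836). For IL15 and TNFSF13B the T47D-co groups with EtOH had the highest means and those with R5020 the lowest, the latter below every T47D-Y library. T47D-co with EtOH and water overlapped with both T47D-Y groups given IFN in these genes, and not with T47D-Y given EtOH and water. For CXCL10 the T47D-Y groups with IFN (58.1 and 55.0, which overlap) stood above T47D-Y with EtOH and water (26.1) and with R5020 and water (20.3), and the 4 T47D-co groups followed at 9.41 to 4.15 with overlap among neighbours. For CXCL16 the T47D-co EtOH groups (1148 and 1146, which overlap) came first, and each of the other 6 groups overlapped with the next, from 943.5 to 759. For CCL5 each group overlapped with the next, from 20.5 to 4.09.

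Within T47D-co 7 members (CXCL16, CCL2, CCL5, CCL28, IL15, TNFSF13B and CD47) had pairwise correlations of 0.76 to 0.98 across the 12 libraries on the log2 scale. CXCL10 stood at 0.24 to 0.65 and CD274 at 0.41 to 0.59 with these 7. IL15 and TNFSF13B correlated at 0.98 (Pearson r, a description over 12 libraries that share the R5020 difference), and IL15 and CD47 at 0.95. CXCL12 ran opposite to them, at -0.97 with TNFSF13B and -0.96 with IL15. In T47D-Y, where R5020 gave no call, the same pairs stood at 0.51, 0.68, 0.15 and -0.09. The highest value there was 0.84, between CXCL10 and CCL5, whose T47D-co value was 0.65.

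Rows most like each member were sought over all 24 libraries among 11455 rows with a mean of at least 50 scaled fragments. CXCL12 was most like CTD-2031P19.5 (Pearson r 0.992), IGF1R (0.992), a growth factor receptor, and THBS1 (0.990), which encodes thrombospondin-1, itself a ligand of CD47. CCL2 was most like LPAR1 (0.992), FTSJD1 (0.990) and PLXDC2 (0.990), CCL28 like SRCIN1 (0.991), and CD47 like USP25 (0.993). TNFSF13B was most like RNF152 (0.980), IL15 like SGMS2 (0.956) and CXCL16 like SLC25A22 (0.962). CXCL10 was most like NIPSNAP3A (0.938), C6orf203 (0.926) and ERAP1 (0.922), the last an aminopeptidase that trims peptides for MHC class I. CD274 was most like SERPING1 (0.945), the C1 inhibitor, and CCL5 like MOV10 (0.893) and SLFN5 (0.884). These values describe 24 libraries that share the line and R5020 differences.

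Receptors and binding partners of the members that passed the filter numbered 11 of 26 listed. With R5020 in T47D-co given water 3 rose and 3 fell, at a median log2 fold change of -0.25. Of all rows, 26.6% were called higher and 30.0% lower there. THBS1 rose from 3911 ± 116 to 13250 ± 284 scaled fragments (1.76, adjusted p = 3.62e-21), and SIRPA, the receptor of CD47, from 516.5 ± 36.7 to 768 ± 30.8 (0.57). CXCR4, the receptor of CXCL12, rose from 68.0 ± 5.94 to 95.2 ± 5.40 (0.48, adjusted p = 0.00701) given water, but given IFN its log2 fold change was -0.01. With IFN in T47D-Y CXCR4 rose from 55.6 ± 4.38 to 88.3 ± 8.63 given EtOH (0.66, adjusted p = 0.0077) and also given R5020 (0.71). The THBS1 row shares its locus with another row.

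Among 10 of 17 listed enzymes and partners, 2 rose and 3 fell with R5020 in T47D-co given water. SDC1, a heparan sulfate proteoglycan of the kind that holds chemokines at the cell surface, rose (0.53), and FURIN (-0.42), the protease that releases TNFSF13B, and the proteoglycan genes SDC4 (-0.31) and GPC1 (-0.25) fell. Of 40 other chemokines listed only 8 passed the filter, and of these 0 rose and 3 fell. The counts of both lists stand beside 26.6% of all rows called higher and 30.0% lower in that comparison. CCL22, which draws T cells through CCR4, fell from 72.6 ± 12.3 to 53.0 ± 10.5 (-0.45, adjusted p = 0.028). Between the lines given EtOH and water, 0 of these 8 chemokines were called higher in T47D-co and 6 lower. Of all rows, 29.7% were called higher and 33.4% lower there. CXCL14, whose row shares its locus, averaged 19.4 ± 8.44 in T47D-co and 2802 ± 156 in T47D-Y (-7.19). CCL22 averaged 72.6 ± 12.3 in T47D-co and 135 ± 11.8 in T47D-Y (-0.90).

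Of 18 other checkpoint and costimulatory ligands that passed the filter, 0 rose and 9 fell with R5020 in T47D-co given water. Of all rows, 26.6% were called higher and 30.0% lower there. Given IFN 0 rose and 11 fell, beside 27.5% of all rows higher and 30.6% lower. VTCN1, which encodes the T cell inhibitor B7-H4, fell from 1285 ± 58.6 to 326 ± 25.2 (-1.98, adjusted p = 2.18e-19), ICOSLG, the ligand of the costimulator ICOS, from 302 ± 5.74 to 161 ± 11.8 (-0.90) and CD55, an inhibitor of complement, from 1635 ± 90.0 to 932 ± 55.5 (-0.81). The median of these 18 was -0.36. B2M, whose protein pairs with MHC class I heavy chains, rose with IFN in T47D-Y (0.97) and in T47D-co (0.47), both given EtOH, and the line difference in that response was called (-0.51).

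Other TNF superfamily ligands that passed the filter numbered 3, of which 0 rose and 2 fell with R5020 in T47D-co given water. TNFSF10, the death ligand TRAIL, fell from 198 ± 11.9 to 33.7 ± 3.34 (-2.52, adjusted p = 4.16e-14), and rose with IFN in T47D-Y (0.95). Of 18 other interleukins and growth cytokines 1 rose and 9 fell, at a median of -0.35. TGFB2 fell from 791 ± 16.8 to 114.5 ± 6.60 (-2.78), KITLG, the ligand of KIT, from 705 ± 16.0 to 286.5 ± 34.9 (-1.30), IL18 from 236 ± 24.5 to 116 ± 9.24 (-1.02) and TGFB3 from 2146 ± 88.0 to 1097 ± 59.5 (-0.97). The 1 that rose was IL12A (2.30), named after its value was seen. The counts of both lists with R5020 stand beside 26.6% of all rows higher and 30.0% lower in the same comparison.

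**Figure D5:**
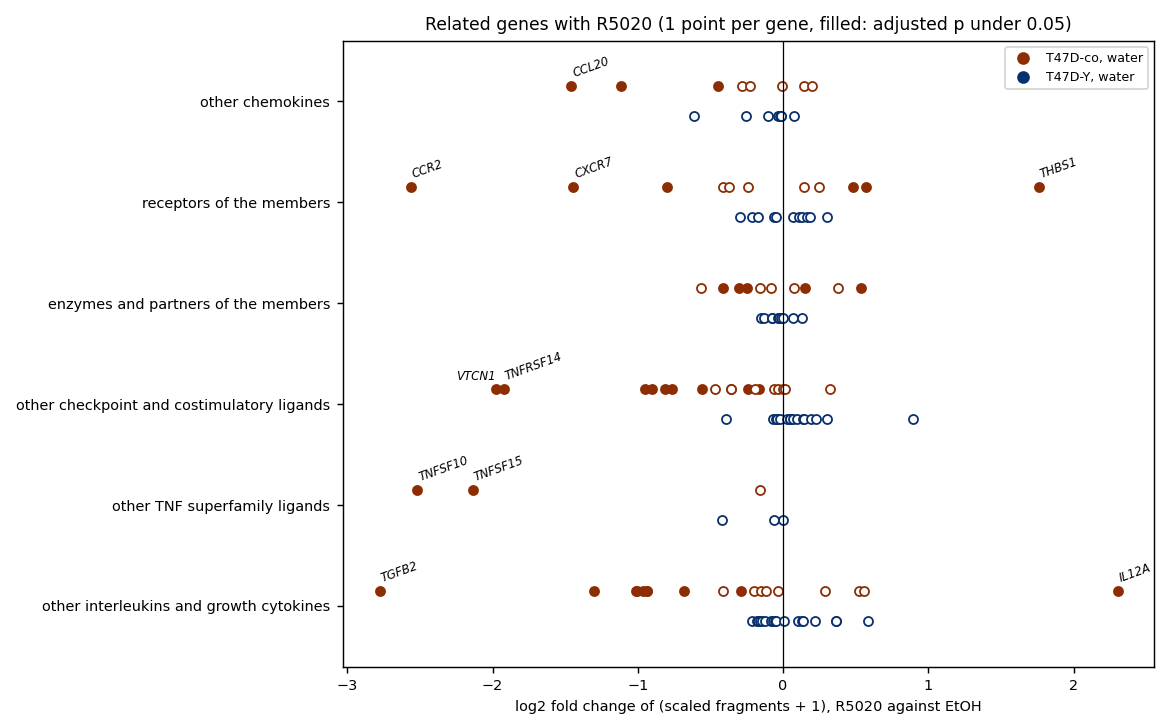
Log2 fold change with R5020 against EtOH (x axis) of every gene tested in 6 lists of related genes (y axis), 1 point per gene, for T47D-co (brown) and T47D-Y (blue) given water, with filled points for an adjusted p under 0.05. Filled points are found in T47D-co alone, with VTCN1, TNFSF10 and TGFB2 at the left, and THBS1 and IL12A at the right.

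Genes of the pathways behind the treatments were listed as checks. Of 12 genes of interferon signalling and response, 6 rose with IFN in T47D-co and 7 in T47D-Y given EtOH, and none fell. Of all rows, 0.570% in T47D-co and 2.51% in T47D-Y were called higher there. With R5020 in T47D-co given water 3 of the 12 rose, JAK1 (0.55), IRF1 (1.02) and STAT3 (1.10), and 8 fell, IFIT1 (-1.70) among them. Of 10 genes of NF-kappaB and steroid receptors, 2 rose with R5020 in T47D-co given water and 7 fell. Both counts with R5020 stand beside 26.6% of all rows called higher and 30.0% lower in that comparison. The 2 that rose were NFKBIA (1.79) and TNFAIP3 (1.35), both inhibitors of NF-kappaB, and those that fell included RELB (-0.82) and NFKB2 (-0.49). Whether these moved the members was not tested.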

How the data were processed

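The tools named are TopHat2 2.0.12 and Cufflinks 2.2.1, with build GRCh37 (hg19), per the submitters' processing notes. The deposited table has 1 column per library and 25541 rows, and its unit is not named per the file headers. The deposited values are therefore treated as a signal: for rows with a locus to themselves, 97.4 to 98.6% of a library's values were multiples of a single step to a tolerance of 0.05, against 60.1 to 63.4% for all rows. They were read as estimated fragments over a library's size factor, and the main test was not a test on counts. The voom weights and the exact intervals of CCL2 did use the estimated fragments as counts. The authors' factors centre on 1 within 4 blocks of 6 libraries, 1 per line and IFN state, so new factors common to all libraries (median of ratios, 14201 rows) took their place. Relative to them the deposited scale is shifted by 0.28 (T47D-Y water), -0.20 (T47D-Y IFN), 0.05 (T47D-co water) and -0.13 (T47D-co IFN) on the log2 scale. A further 25 rows under 10 repeated names were left out.

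The test was limma 3.58.1 in R 4.3.3 on log2 of scaled fragments plus 1 (variance trend, 8 group means, two-sided, Benjamini-Hochberg adjustment over 20162 rows), after parsing in Python 3.11.15. Intervals of 95% use the fit's moderated degrees of freedom. Replicates of a group differed beyond sampling noise. Over rows alone at their locus, chi-square per degree of freedom for 2 libraries of a group was 1.59 to 150 (median 3.61). For 2 libraries of different groups it was 2.07 to 372 (median 113), so some replicates differed as much as groups do. The part of the 4 libraries of low mitochondrial share in this was not tested. Replicate numbers were not taken to pair the samples. In 0 of 28 pairs of groups were all 3 correlations of deviations over 0.1 (range -0.33 to 0.30). With 3 libraries per group this check cannot exclude pairing. Alternatives were other scalings, pseudocounts, filters, voom weights, fits of the compared groups alone, a replicate block, leave-one-out fits, the sum of rows at a locus and omission of 4 libraries.

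The members and lists were chosen with earlier results of these data known. All 10 members are named. Genes named from a list are up to 4 called ones with the largest change that reached 50 scaled fragments in 1 group. They are given for R5020 in T47D-co given water, and only in part for other comparisons. Between the lines only other chemokines given EtOH and water are named. Genes of the other lists that broke this rule are said to have been picked after their values were seen. Of the pathway checks, genes beyond PGR and ISG15 were named so too. Rows of like pattern are the 3 with the highest Pearson r. A leukocyte marker of the list, and with it the list's summed level, is not reported here.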

Additional observations from a re-analysis of the deposited data

Results flagged for a closer look

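The response to R5020 differed between the 2 lines in 7 of the 10 members, by limma's test of the interaction among libraries given water (adjusted p under 0.05, where 44.6% of all rows were called). On the log2 scale, T47D-co minus T47D-Y, the differences were 2.09 for CXCL12, -3.47 for CCL2, -1.81 for IL15, -1.27 for TNFSF13B, -1.19 for CCL28, -0.41 for CD47 and -0.25 for CXCL16. The size of the CCL2 value depends on the pseudocount of 1. The CXCL16 call was lost in 8 of 12 leave-one-out fits, and the CCL28 call without the 4 libraries of low mitochondrial share (-0.98). In each of the 7 the T47D-Y estimate lay between -0.16 and 0.20 and was not called.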

How the results depend on the processing

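Counts of called members with R5020 in T47D-co, between the lines and for the line by R5020 interaction moved by at most 2 members in the alternatives run, and by 2 only with a filter at 50 scaled fragments, which leaves fewer members tested. On the deposited scale, which shifts the blocks of line and IFN state, called members numbered 2 for IFN in T47D-co given EtOH, 1 given R5020, 3 for IFN in T47D-Y given EtOH, 4 given R5020 and 2 for the line by IFN interaction, against 0 in each. The turned estimates there were CD47 in T47D-co given EtOH -0.14; in T47D-Y given EtOH CXCL16 -0.34, TNFSF13B -0.37 and CD47 -0.39; in T47D-Y given R5020 CXCL12 -0.42, CXCL16 -0.42, TNFSF13B -0.28 and CD47 -0.38; and the CD47 line by IFN interaction 0.25. Called members for IFN in T47D-Y given EtOH and given R5020 were 1 and 1 with a pseudocount of 10, 1 and 3 with voom weights and 1 and 1 from the compared groups alone. CXCL10 was called in each of these, and voom weights given R5020 also called CCL5 (1.13) and CCL28 (0.44). The leave-one-out range for IFN in T47D-co given R5020 was 0 to 1, with CCL2 called at 0.94 without T47D-co R5020 IFN replicate 3. With a replicate block CXCL10 was called with R5020 in T47D-co given IFN (-1.10), and no other member's call changed. A further 136 estimates changed sign where neither fit called the member.

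Counts over all rows moved too. For IFN they were 202 in T47D-co given EtOH, 2269 given R5020, 896 in T47D-Y given EtOH and 961 given R5020, against 8440, 7205, 14709 and 14783 on the deposited scale. Leaving out 1 library gave 1153 to 2991 in T47D-co given R5020, 574 to 852 in T47D-Y given EtOH and 526 to 945 given R5020. The compared groups alone gave 120 and 1362 in T47D-co given EtOH and R5020 and 637 in T47D-Y given R5020, and omission of the 4 libraries of low mitochondrial share 128, 514 and 328 for all but T47D-co given R5020. The line by IFN interaction had 76 rows and 9526 on the deposited scale, and the R5020 by IFN interaction in T47D-co 203, with 118 from its own groups, 63 without the 4 libraries and 75 to 416 without 1 library. R5020 in T47D-Y had 44 rows given water (27 from its own groups, 16 without the 4 libraries) and 60 given IFN (15 from its own groups, 29 with voom weights, 29 without T47D-Y R5020 IFN replicate 1 and 41 to 52 without any other library). Low counts limit CXCL10, CCL2, CCL5 and CD274 in T47D-co.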
